A study of Rattus norvegicus with 20 samples.

Results

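Whole blood of ZDF rats given resveratrol was compared with whole blood of lean rats. The 10 arrays were chosen by their titles, 5 resveratrol rats and 5 lean rats, out of 20 arrays in all. The ZDF (Zucker diabetic fatty) rat carries a leptin receptor defect on a Zucker background and becomes obese and diabetic, and resveratrol is a plant polyphenol studied for its actions on SIRT1, AMPK and antioxidant genes. All rats were male, the labels give the strain of every group as Zucker, and the 5 arrays of a group are titled as biological replicates. Lean rats ate a standard Purina chow and obese rats a stock diet for 6 weeks, so diet and obesity cannot be told apart in a comparison with lean. The labels give neither the genotype of the lean rats nor any age, and no dose, route or duration of resveratrol. The further 5 arrays of untreated ZDF rats (titled obese) and 5 of ZDF rats given rosiglitazone, an insulin-sensitizing PPAR gamma agonist, served to ask which differences from lean were already there without the compound. Nothing in the design holds resveratrol given to lean rats.

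RNA of whole blood comes from young red cells, platelets, neutrophils, monocytes and lymphocytes. Red cells leave the marrow with the last of their RNA, so hemoglobin and heme transcripts are among the brightest in blood, while B cells, T cells and NK cells carry most of the receptor and signalling transcripts of adaptive immunity. Obesity and diabetes are known to come with more circulating myeloid cells. In bulk RNA, fewer cells of a type and less RNA per cell cannot be told apart.

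The deposited values are log2 intensities, on which 1 unit is a factor of 2. Of 36685 transcript clusters (probe sets that each give 1 value per array), 14824 carry a single gene symbol, and 8499 genes were bright enough to be tested. The array medians lay between 2.54 and 2.66 in lean, 2.64 and 2.70 in untreated ZDF and 2.65 and 2.72 in resveratrol rats. The median SD of a gene among the 5 rats was 0.243 in lean, 0.256 in untreated ZDF and 0.297 in resveratrol. Values below are given in the order of replicates 1 to 5, and a difference is resveratrol minus lean with its standard error from limma, fitted on all 20 arrays.

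3 arrays stand apart. Resveratrol replicate 1 and rosiglitazone replicate 5 each correlated with the other 19 arrays at a mean r of 0.919, against 0.943 to 0.959 for the rest, and resveratrol replicate 1 had the lowest mean of the B cell, T cell, NK cell and monocyte lists in its group. Lean replicate 1 carried muscle transcripts. Its values were 7.22 for Myh4 (fast myosin heavy chain), 7.39 for Acta1 (skeletal actin), 6.35 for Mb (myoglobin) and 6.10 for Ckm (muscle creatine kinase), whereas Myh4 did not pass 2.97 in the other lean rats and 2.42 in the resveratrol rats. The mean of the 8 muscle genes tested was 5.68 in lean replicate 1, 3.09 to 3.48 in the other lean rats and 2.96 to 3.32 in the resveratrol rats. Their part in the results was not tested, and counts are given with and without these arrays. Markers of blood cells were bright in every rat: Slc4a1 (red cell anion exchanger) read 10.75, 10.51, 10.77, 10.54 and 10.75 in lean and 11.07, 11.11, 11.03, 10.66 and 10.97 in resveratrol rats, and Pf4 (platelet factor) read 11.23, 11.19, 11.10, 11.19 and 11.06 in lean and 10.85, 10.69, 10.61, 10.93 and 10.47 in resveratrol rats.

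Between resveratrol and lean blood, 1118 of 8499 genes (13.2%) passed an adjusted p of 0.05. Of these, 232 (2.73%) were higher and 886 (10.4%) lower under resveratrol. The median difference over all 8499 genes was -0.085. With the brightness cut moved to the 75th percentile it was -0.217, with 935 of 4361 genes lower and 143 higher. Without a cut it was 0.028, so the downward shift was larger among bright genes. The groups did not overlap in 10.5% of genes: in 170 all 5 resveratrol values lay above all 5 lean values, and in 720 all lay below. The count depended on single rats: it was 318 without resveratrol replicate 1, 647 without resveratrol replicate 3, 343 without lean replicate 1, 587 without lean replicate 2 and 317 without lean replicate 4. Without the 3 arrays that stand apart it was 245, and 221 genes (39 higher and 182 lower) passed whichever of the 10 resveratrol and lean arrays was left out. Lower genes outnumbered higher ones under each of these settings. The split moved with the scaling, from 20.8% higher as deposited to 42.4% of 415 calls after quantile normalization and 9.81% of 1345 with every array centred on its median. The median over all genes was then -0.02 and -0.16, respectively. From here on, a gene or list given without an array or several arrays had each of them left out singly. The shares of 10.4% lower and 2.73% higher hold for all 20 arrays as deposited, and other settings called other shares of all genes. Lower and higher genes of 8499 were 249 and 69 without resveratrol replicate 1, and 540 and 107 without resveratrol replicate 3. They were 266 and 77 without lean replicate 1, 472 and 115 without lean replicate 2, and 260 and 57 without lean replicate 4. After quantile normalization they were 239 and 176.

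**Figure D1:**
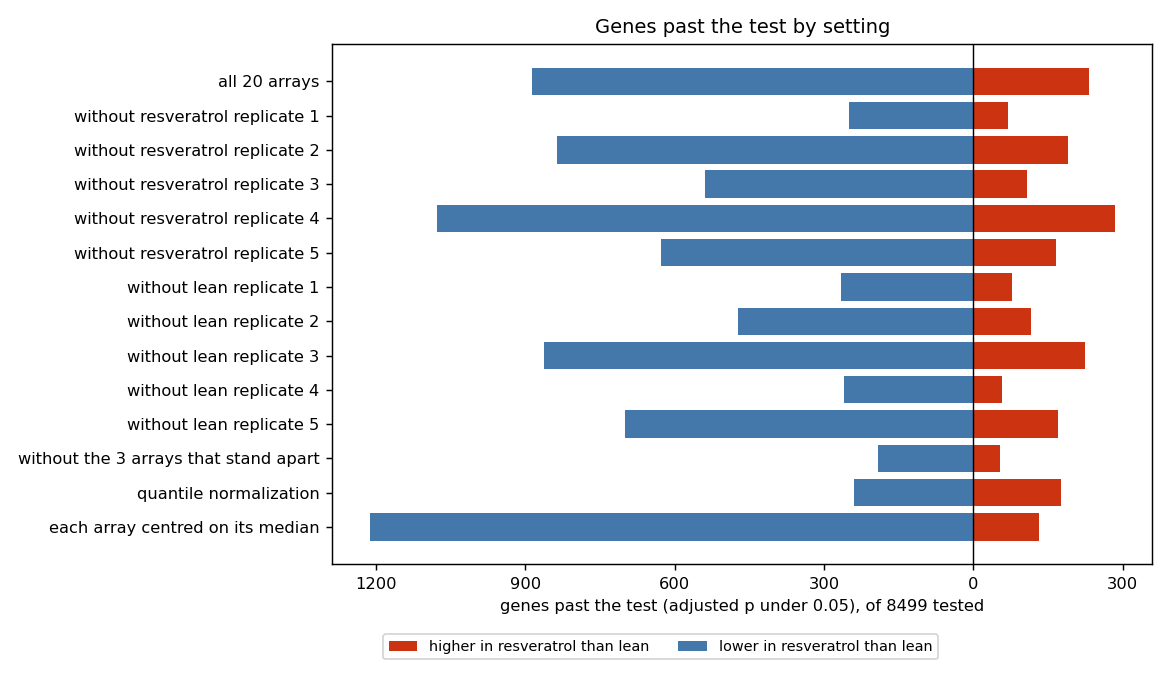
Genes past the test in resveratrol minus lean, with those higher under resveratrol to the right of 0 and those lower to the left (x axis, number of genes of 8499 tested), for all 20 arrays and for other settings (y axis). The bars shrink most without resveratrol replicate 1 (318 genes), lean replicate 4 (317), lean replicate 1 (343) and the 3 arrays that stand apart (245), and lower genes outnumber higher ones in every row.

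Untreated ZDF rats differed from the same lean rats in 23 genes (0.271%) and rosiglitazone-treated ZDF rats in 1585 (18.6%). These comparisons share the lean rats and are set side by side only. Of the 1118 genes, 18 had also passed with the same sign in untreated ZDF, and these are the differences from lean that remained. Their median size was 0.98 under resveratrol and 0.98 in untreated ZDF. The other 1100 passed under resveratrol only, 227 higher and 873 lower, with a median size of 0.66 under resveratrol and 0.39 in untreated ZDF. Passing in only 1 of the comparisons does not show that the groups differ: set directly against untreated ZDF, 0 of the 1100 passed the adjusted test, 307 had an unadjusted p under 0.05, and 559 had an unadjusted p under 0.05 already in untreated ZDF minus lean. Over all genes, limma called 0 of 8499 between resveratrol and untreated ZDF, where the smallest adjusted p was 0.143 and 873 genes had an unadjusted p under 0.05. The division into remaining and appearing genes moved with the fit: 135 genes remained and 859 appeared when each contrast was fitted on its own 10 arrays, and 388 remained and 1175 appeared with array weights.

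The differences that remained included H2ac12, a histone H2A gene. It read 5.15, 5.53, 5.31, 5.25 and 4.94 in the lean, 6.40, 6.33, 6.53, 6.19 and 6.65 in the untreated ZDF and 6.68, 6.80, 7.14, 6.31 and 6.25 in the resveratrol rats. All 5 untreated ZDF and all 5 resveratrol values lay above all 5 lean values, and the difference was 1.40 ± 0.17 (adjusted p = 5.38e-05) under resveratrol and 1.18 in untreated ZDF. Snrpgl2, named as a copy of the small nuclear ribonucleoprotein G gene, went the other way with 4.98, 5.60, 5.57, 5.52 and 5.21 in lean, 3.11, 4.09, 3.56, 3.83 and 3.47 in untreated ZDF and 4.32, 3.32, 3.03, 3.82 and 2.30 in resveratrol rats. Its difference of -2.02 ± 0.28 (adjusted p = 0.000254) was the largest fall under the naming rule, again without overlap. Histone and ribonucleoprotein genes have near-identical copies that may share probes, so which copy these values come from is uncertain.

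Zbp1, a cytosolic sensor of nucleic acids in the Z form, also remained lower. The lean rats read 4.67, 4.48, 3.91, 4.30 and 3.81, the untreated ZDF rats 3.12, 2.97, 3.06, 3.65 and 3.33 and the resveratrol rats 2.79, 3.09, 3.70, 3.27 and 3.24, with a difference of -1.01 ± 0.19 (adjusted p = 0.00484) against -1.003 in untreated ZDF. Xpo4, a nuclear export receptor, had 4.94, 4.91, 4.95, 5.15 and 5.13 in lean and 3.65, 3.95, 4.16, 4.19 and 4.01 in resveratrol rats, a difference of -1.03 ± 0.13 (adjusted p = 0.000138) that was -0.72 in untreated ZDF. Sprr1b, a small proline-rich protein of cornified epithelia, and Krt86, a hair keratin, remained higher by 1.10 ± 0.19 and 1.02 ± 0.15 (adjusted p = 0.0035 and 0.000669). Their untreated ZDF differences were 1.09 and 0.83. The 12 others were Mcm7 (-0.76 ± 0.17), a subunit of the replicative helicase, Rps3a (-0.93 ± 0.23), a ribosomal protein, Map2k4, Bik, Ak3, C1qbp, Aig1, Ptp4a3, Tmem131l, Rps8l1, Rps23-ps11 and RGD1565183. The call of Rps3a was lost without lean replicate 1 and without lean replicate 4 (adjusted p up to 0.0553). The number that remained was 42 without resveratrol replicate 1, 9 without lean replicate 1, 7 without lean replicate 2, 6 without lean replicate 4, 68 without lean replicate 5, 6 without ZDF replicate 1 and 9 without ZDF replicate 5.

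The larger rises from lean that the naming rule picked (groups apart and past the test) ran from 1.57 ± 0.27 for Clic2 to 0.86 ± 0.19 for Entpd2. Clic2, a chloride intracellular channel family protein, read 5.97, 5.95, 6.52, 6.52 and 5.40 in lean, 7.56, 7.03, 7.02, 6.79 and 7.58 in untreated ZDF and 7.86, 7.58, 8.34, 7.22 and 7.21 in resveratrol rats (adjusted p = 0.00294). Its untreated ZDF difference from lean was 1.12 (adjusted p = 0.0541), and the untreated ZDF mean lay between the others. Slc16a1, the lactate and pyruvate transporter MCT1, read 5.01, 4.68, 5.73, 4.96 and 4.66 in lean and 6.48, 5.83, 6.18, 5.90 and 5.82 in resveratrol rats, a rise of 1.04 ± 0.20 (adjusted p = 0.00482), with 5.81, 5.41, 5.06, 5.13 and 5.86 in untreated ZDF rats. Id1, an inhibitor of helix-loop-helix transcription factors, rose by 1.02 ± 0.17 (adjusted p = 0.00294) from 3.70, 3.47, 3.49, 3.97 and 3.85 to 4.97, 4.26, 4.70, 5.04 and 4.60. Untreated ZDF rats lay above all lean rats for Id1, with 4.13, 4.45, 3.999, 4.04 and 4.04, and overlapped the lowest resveratrol rat.

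Entpd2, an ectoenzyme that cleaves extracellular ATP, read 2.93, 3.10, 2.57, 2.56 and 2.97 in lean, 3.36, 3.23, 2.71, 2.99 and 2.66 in untreated ZDF and 4.06, 3.33, 3.76, 3.64 and 3.66 in resveratrol rats (adjusted p = 0.00917). The untreated ZDF rats overlapped the lean rats, with a difference of 0.16, and resveratrol minus untreated ZDF was 0.70 (unadjusted p = 0.000931, adjusted p = 0.34). Cdkn2b, the cyclin-dependent kinase inhibitor p15, rose by 0.90 ± 0.21 (adjusted p = 0.0138), with 0.31 in untreated ZDF. Chst13, a chondroitin sulfotransferase, and Itga5, the alpha chain of the fibronectin receptor, rose by 1.06 ± 0.20 and 0.98 ± 0.22 (adjusted p = 0.0045 and 0.0112) and were 0.76 and 0.82 in untreated ZDF. Rps6 rose by 0.88 ± 0.21 (adjusted p = 0.0148) from 2.69, 2.79, 3.03, 3.12 and 3.16 in lean to 4.08, 3.68, 4.46, 3.68 and 3.30 in resveratrol rats, and has near-identical copies that may share its probes. Its lean values, like those of Entpd2, lay near the brightness cut for testing (2.64). Mmp9, the gelatinase of neutrophil granules, rose by 1.18 ± 0.36 (adjusted p = 0.0346), but not past the test without lean replicate 1, 2, 4 or 5 or resveratrol replicate 1, 3 or 5 (adjusted p up to 0.0776).

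**Figure D2:**
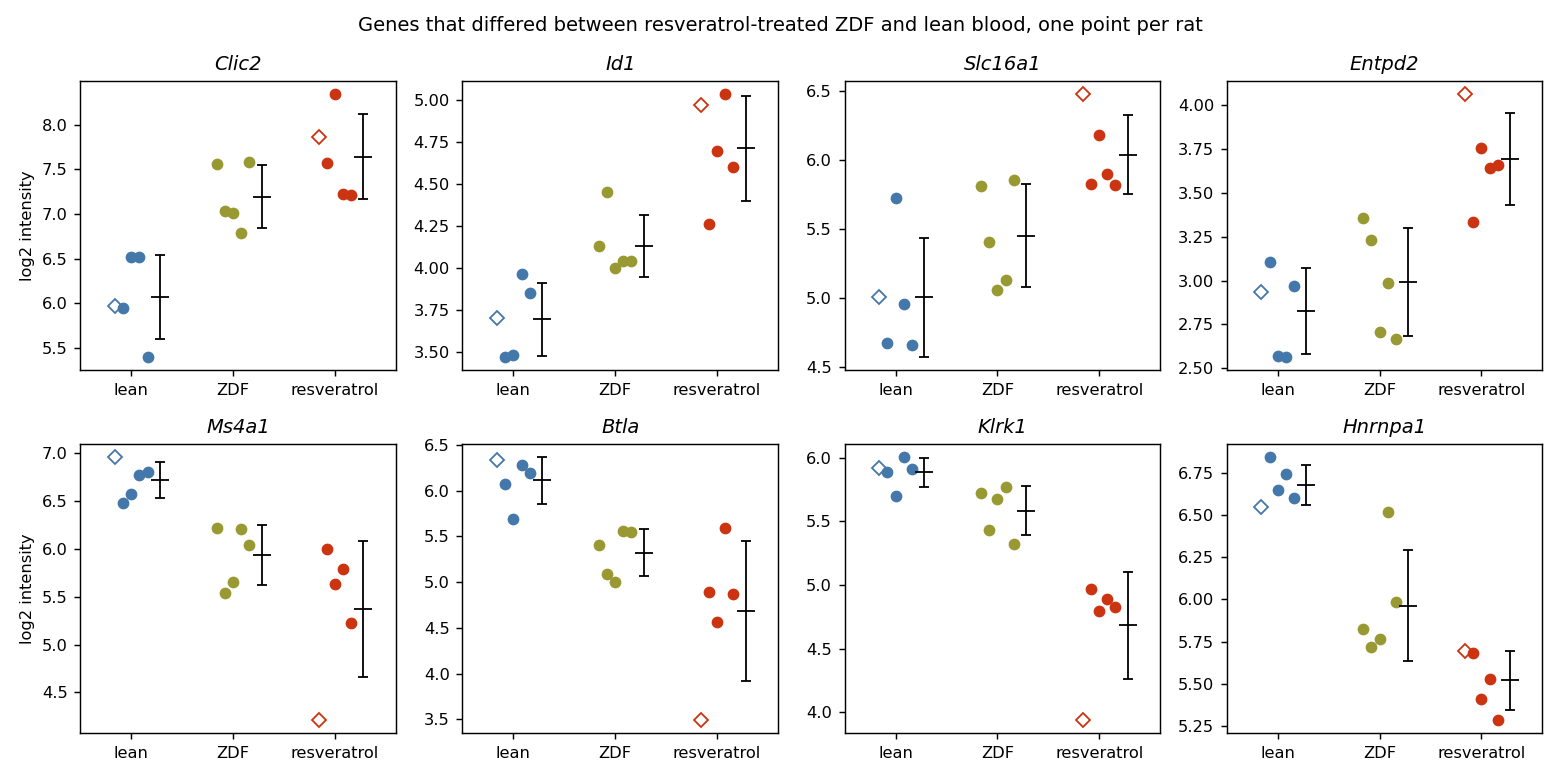
Log2 intensity (y axis) of 4 genes that were higher and 4 that were lower in resveratrol than in lean blood, with 1 point per rat in lean, untreated ZDF and resveratrol rats and the mean with its SD in black. Open diamonds are lean replicate 1 and resveratrol replicate 1. In each panel all resveratrol values lie on the same side of all lean values, and the untreated ZDF mean lies between the means of the other groups.

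Ms4a1, which encodes the B cell antigen CD20, read 6.96, 6.48, 6.57, 6.77 and 6.80 in lean, 6.22, 5.54, 5.66, 6.21 and 6.04 in untreated ZDF and 4.21, 6.003, 5.63, 5.79 and 5.22 in resveratrol rats. Resveratrol replicate 1 was lowest, the groups did not overlap, and the difference was -1.34 ± 0.25 (adjusted p = 0.0045, and 0.0115 without that rat). Btla, an inhibitory receptor of B and T cells, read 6.33, 6.07, 5.69, 6.28 and 6.20 in lean, 5.40, 5.09, 5.01, 5.56 and 5.55 in untreated ZDF and 3.49, 4.89, 4.56, 5.59 and 4.87 in resveratrol rats, a difference of -1.43 ± 0.25 (adjusted p = 0.00294). Ptpn22, a phosphatase that restrains antigen receptor signalling, read 5.06, 4.47, 4.09, 5.13 and 4.72 in lean and 2.13, 3.64, 3.69, 3.34 and 3.07 in resveratrol rats, a difference of -1.52 ± 0.34 (adjusted p = 0.0119). In untreated ZDF these genes were at -0.78, -0.79 and -1.05 against lean, none past the test.

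Gpr174, a receptor for lysophosphatidylserine on lymphocytes, fell with 5.17, 5.31, 5.01, 5.01 and 4.91 in lean and 2.96, 3.68, 3.99, 4.13 and 4.01 in resveratrol rats, a difference of -1.33 ± 0.21 (adjusted p = 0.00146). Cd69, an early activation antigen, Themis, a protein of T cell receptor signalling, and Cd180, a Toll-like receptor homolog of B cells, differed by -1.30 ± 0.32, -1.30 ± 0.29 and -1.24 ± 0.30 (adjusted p = 0.016, 0.0119 and 0.0148). All of them passed whichever single resveratrol or lean array was left out, but Cd69 and Cd180 did not pass without the 3 arrays that stand apart (adjusted p = 0.0747 and 0.0702). Calhm6, a calcium homeostasis modulator family member, and HMGB1, a chromatin protein kept under its annotation name, differed by -1.29 ± 0.22 and -1.23 ± 0.23 (adjusted p = 0.00294 and 0.00449). P2ry10b, a paralog of the receptor P2ry10, and Cdv3l1 differed by -1.25 ± 0.31 and -1.33 ± 0.29 (adjusted p = 0.016 and 0.0105), and P2ry10b did not pass without resveratrol replicate 1 (adjusted p = 0.0518).

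B cell genes were lower as a group. Of 13 tested, 8 fell and 0 rose, against 10.4% lower over all genes, all 13 differences were negative, and their median was -0.69. In untreated ZDF the list median was -0.505 against lean. Beside Ms4a1, the list held Ebf1, a transcription factor of B cell identity, at 6.13, 5.52, 5.46, 5.50 and 5.66 in lean and 4.03, 5.02, 4.09, 4.90 and 4.68 in resveratrol rats (-1.11 ± 0.21, adjusted p = 0.00517). Cxcr5, the follicle homing receptor, and Cd72, a B cell coreceptor, differed by -0.82 ± 0.21 and -0.73 ± 0.19 (adjusted p = 0.0179 and 0.0191). The former was lost without resveratrol replicate 1 (adjusted p = 0.0599) and the latter without that rat or without lean replicate 1 (adjusted p up to 0.052). The list mean was 4.93 to 5.42 in lean, 4.37 to 4.79 in untreated ZDF and 3.96 to 4.76 in resveratrol rats, so the last 2 groups overlapped. Leaving out 1 array gave 2 to 8 lower genes, with 2 without resveratrol replicate 1, 3 without lean replicate 1, 4 without lean replicate 4, 4 without resveratrol replicate 3 and 5 without lean replicate 5, while the median stayed between -0.79 and -0.58. After quantile normalization 3 of the 13 passed, where 239 of all 8499 genes were lower.

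T cell genes went the same way, with 10 of 23 lower, against 10.4% of all genes, and 0 higher. All 23 differences were negative, with a median of -0.62. Against lean, the list median was -0.40 in untreated ZDF (0 past the test) and -0.865 under rosiglitazone (19 lower). The list mean was 5.34 to 6.04 in lean, 5.16 to 5.55 in untreated ZDF and 4.55 to 5.43 in resveratrol rats. These ranges overlapped. Lck, the kinase next to the T cell receptor, read 6.87, 6.63, 6.40, 6.89 and 6.35 in lean, 5.65, 5.86, 5.94, 5.56 and 5.64 in untreated ZDF and 5.04, 6.08, 5.51, 5.96 and 5.73 in resveratrol rats (-0.96 ± 0.23, adjusted p = 0.0138). Its untreated ZDF difference was -0.90 and did not pass (adjusted p = 0.0642). Cd28, the costimulatory receptor, and S1pr1, the receptor by which T cells leave lymph nodes, differed by -0.86 ± 0.22 and -0.62 ± 0.17 (adjusted p = 0.0185 and 0.0242). Both lost the call without resveratrol replicate 1 or lean replicate 1, and S1pr1 also without lean replicate 4 (adjusted p up to 0.0774). The core chains Cd3d and Cd3e did not pass, at -0.73 ± 0.26 and -0.60 ± 0.21 (adjusted p = 0.0579 and 0.0554), and Cd4 was at -0.48 ± 0.23 (adjusted p = 0.146). The list count was 2 without resveratrol replicate 1, 2 without lean replicate 1, 3 without lean replicate 4, 4 without lean replicate 2 and 14 without lean replicate 3. The median stayed between -0.74 and -0.48. After quantile normalization 2 of the 23 passed, where 239 of all 8499 genes were lower.

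In the NK and cytotoxic list 3 of 18 genes were lower (10.4% of all genes were) and 16 differences were negative. The median was -0.57, and -0.31 in untreated ZDF. Klrk1, the activating receptor NKG2D, read 5.92, 5.88, 5.70, 6.01 and 5.91 in lean, 5.72, 5.43, 5.68, 5.77 and 5.33 in untreated ZDF and 3.94, 4.97, 4.80, 4.89 and 4.83 in resveratrol rats. All resveratrol values lay below all lean and all untreated ZDF values, and the difference from lean was -1.20 ± 0.21 (adjusted p = 0.0035, and 0.0117 without resveratrol replicate 1). Against untreated ZDF it was -0.90 (unadjusted p = 0.000276, adjusted p = 0.261). Prf1, which encodes perforin, and Txk, a kinase of T and NK cells, differed by -0.68 ± 0.22 and -0.97 ± 0.26 (adjusted p = 0.0449 and 0.0232). Prf1 did not pass when lean replicate 1, 2, 3 or 4 or resveratrol replicate 1 or 3 was left out (adjusted p up to 0.142), and Txk when lean replicate 1 or 4 or resveratrol replicate 1 was left out (adjusted p up to 0.078). The list had 1 lower gene without resveratrol replicate 1, lean replicate 1 or lean replicate 4, 2 without lean replicate 2 or resveratrol replicate 3, 5 without resveratrol replicate 2 and 8 without resveratrol replicate 4.

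**Figure D3:**
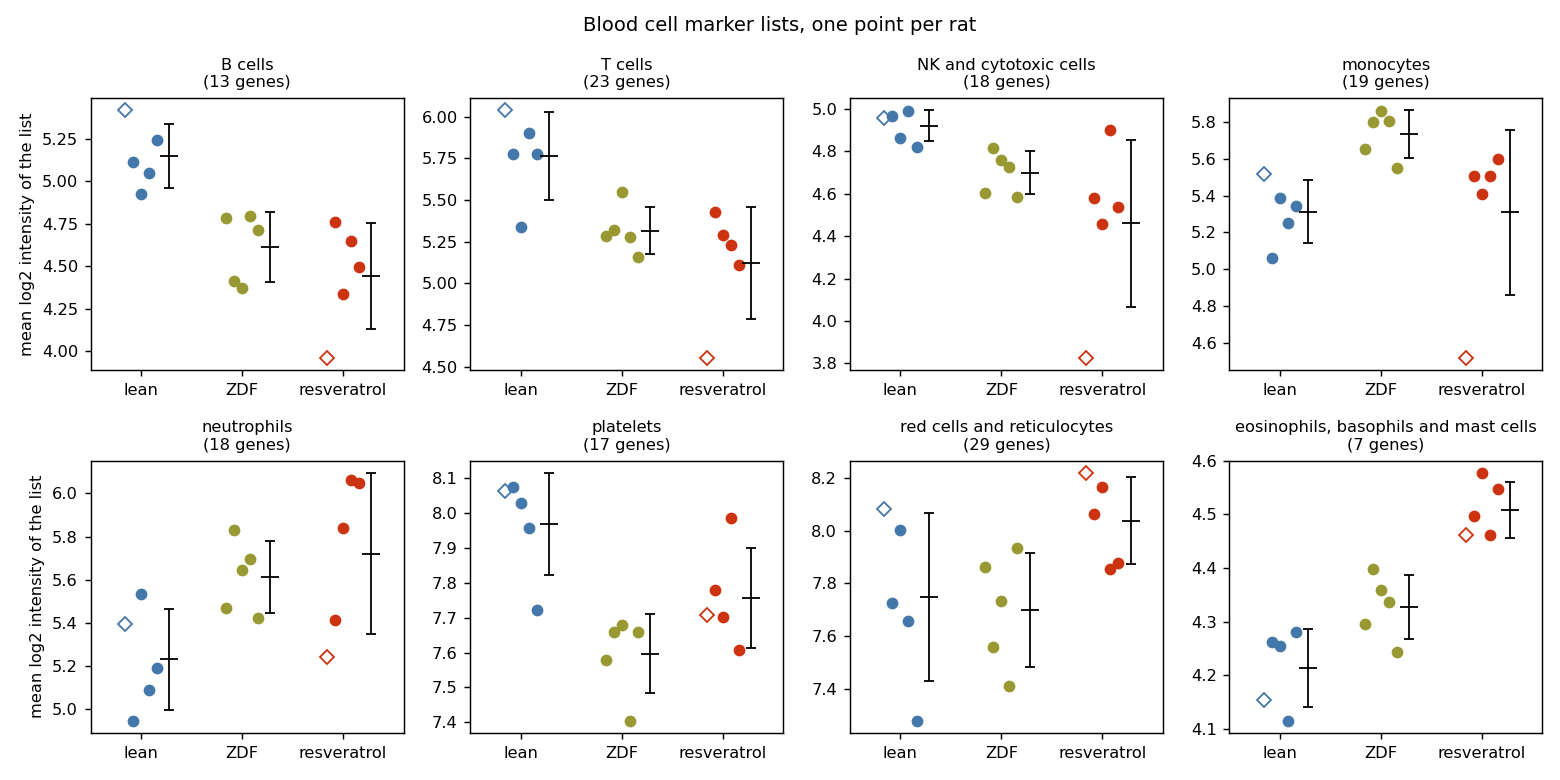
Mean log2 intensity over the tested genes of 8 blood cell marker lists (y axis), with 1 point per rat in lean, untreated ZDF and resveratrol rats and the group mean with its SD in black. Open diamonds are lean replicate 1 and resveratrol replicate 1. The B cell means of resveratrol rats (3.96 to 4.76) lie below those of lean rats (4.93 to 5.42). The eosinophil, basophil and mast cell means (4.46 to 4.58) lie above (4.12 to 4.28), over 7 genes of which 1 passed the test. Resveratrol replicate 1 is far below its group in the monocyte panel at 4.52.

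Antigen presentation genes were lower in 6 of 18, against 10.4% of all genes, with a median of -0.42 that was -0.25 in untreated ZDF. Cd74, the MHC class II invariant chain, read 9.56, 9.15, 9.16, 9.36 and 9.78 in lean and 8.04, 9.14, 8.72, 9.20 and 8.88 in resveratrol rats (-0.61 ± 0.19, adjusted p = 0.0348), and the groups overlapped. RT1-Da and RT1-Bb, the rat class II chains, differed by -0.66 ± 0.19 and -0.73 ± 0.22 (adjusted p = 0.0264 and 0.033), and Psmb8, a subunit of the immunoproteasome, by -0.64 ± 0.18 (adjusted p = 0.0261). No gene of this list passed without resveratrol replicate 1, 1 passed without lean replicate 1 or lean replicate 4, 2 without lean replicate 2 or 5, and 3 without resveratrol replicate 3 or 5. After quantile normalization 0 passed, with a median of -0.29, where 239 of all 8499 genes were lower. The low values of that rat in class II, B cell and monocyte genes move with this result, and their part in it was not tested.

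Monocyte genes had no common direction: 1 of 19 was lower (10.4% of all genes were), 9 differences were positive and 10 negative, and the median was -0.07. Without resveratrol replicate 1 the median was 0.24 and no gene passed. In untreated ZDF the same list had a median of 0.45 against lean, also with 0 genes past the test. The gene that passed was Ly86, the partner of Cd180, at -0.82 ± 0.24 (adjusted p = 0.0294), but not past the test without lean replicate 1, 4 or 5 or resveratrol replicate 1 or 3 (adjusted p up to 0.0899). Csf1r, the receptor for the monocyte growth factor, read 6.84, 6.12, 6.59, 6.42 and 6.35 in lean, 6.47, 7.05, 6.99, 7.25 and 6.77 in untreated ZDF and 5.05, 6.87, 6.42, 6.37 and 6.22 in resveratrol rats, a difference from lean of -0.28 ± 0.27 (adjusted p = 0.496). Cd14, the endotoxin coreceptor, was at 3.72, 3.71, 3.65, 3.74 and 4.25 in lean and 3.43, 4.44, 4.59, 4.40 and 4.42 in resveratrol rats (0.44 ± 0.23, adjusted p = 0.185). 4 of these 5 resveratrol values lay above all lean values, and replicate 1 lay below them.

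Neutrophil genes were higher on balance, with 4 of 18 higher against 2.73% over all genes, 1 lower, 15 positive differences and a median of 0.57. Against lean, the list median was 0.41 in untreated ZDF (0 past the test) and 0.86 under rosiglitazone (8 higher, 1 lower). The list mean was 4.95 to 5.53 in lean, 5.42 to 5.83 in untreated ZDF and 5.24 to 6.06 in resveratrol rats. These ranges overlapped. Mmp8, the neutrophil collagenase, read 6.24, 6.01, 7.09, 5.86 and 5.91 in lean, 7.20, 7.57, 6.98, 7.10 and 6.76 in untreated ZDF and 7.04, 6.62, 6.99, 8.05 and 8.06 in resveratrol rats (1.13 ± 0.34, adjusted p = 0.0336). Lean replicate 3 overlapped the resveratrol rats, and the call was lost when lean replicate 1, 2, 4 or 5 or resveratrol replicate 1, 4 or 5 was left out (adjusted p up to 0.0817). Csf3r, the G-CSF receptor, differed by 0.86 ± 0.26 (adjusted p = 0.033), but not past the test without lean replicate 2, 4 or 5 or resveratrol replicate 1, 4 or 5 (adjusted p up to 0.0834). The alarmin subunits S100a8 and S100a9 were at 1.07 ± 0.37 and 0.73 ± 0.33 and did not pass (adjusted p = 0.0553 and 0.124). Retnlg, a resistin-like gene expressed in rodent neutrophils, fell by 1.54 (adjusted p = 0.0398), with 7.92, 6.09, 6.49, 7.73 and 8.40 in lean and 4.26, 6.65, 6.90, 5.56 and 5.54 in resveratrol rats that overlapped, but not past the test without lean replicate 1, 4 or 5 or resveratrol replicate 1, 4 or 5 (adjusted p up to 0.13). The higher count was 0 without lean replicate 2, 4 or 5 or resveratrol replicate 5, 1 without lean replicate 1 or resveratrol replicate 1 or 4, 2 without resveratrol replicate 3 and 6 without resveratrol replicate 2, and the median stayed between 0.47 and 0.73. Prok2, a secreted prokineticin made by neutrophils, was lower than lean by 0.88 (adjusted p = 0.0337), but not past the test without lean replicate 1, 4 or 5 or resveratrol replicate 1, 3 or 5 (adjusted p up to 0.0976).

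Red cell and reticulocyte genes lay a little higher, with 28 of 29 differences positive and a median of 0.26. Past the test were 3 (all higher, against 2.73% of all genes), and 0 without the 3 arrays that stand apart. The untreated ZDF median was 0.01, and under rosiglitazone it was 0.19 with 3 genes higher. The list mean was 7.28 to 8.08 in lean and 7.86 to 8.22 in resveratrol rats, so the groups overlapped. Hbb-b1, a beta globin, read 10.95, 11.13, 11.43, 11.43 and 11.16 in lean, 11.70, 11.47, 11.56, 11.62 and 11.73 in untreated ZDF and 11.77, 11.76, 11.77, 11.79 and 11.71 in resveratrol rats (0.54 ± 0.13, adjusted p = 0.0148). The resveratrol rats were within a narrow range above all lean rats, near the top of the scale of these arrays (12.2). Tfrc, the transferrin receptor of reticulocytes, read 6.44, 6.44, 7.54, 6.63 and 5.54 in lean and 8.35, 7.26, 7.50, 7.61 and 7.85 in resveratrol rats (1.20 ± 0.34, adjusted p = 0.0292), and Slc25a37, the mitochondrial iron importer of red cell precursors, differed by 0.53 ± 0.16 (adjusted p = 0.033). The call of Tfrc was lost without lean replicate 1, 2, 4 or 5 or resveratrol replicate 1 (adjusted p up to 0.0879), and Slc25a37 also without resveratrol replicate 3 (up to 0.0881). With 1 array left out, 1 to 7 genes of the list passed, with 1 without lean replicate 1, 2, 4 or 5 or resveratrol replicate 1, 2 without resveratrol replicate 3 and 7 without resveratrol replicate 4.

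Platelet genes were lower in 2 of 17, beside 10.4% of all genes, with a median of -0.20 and -0.33 in untreated ZDF. Ppbp, the platelet basic protein, read 8.22, 7.99, 8.30, 8.14 and 7.89 in lean, 7.09, 7.34, 7.52, 6.74 and 7.27 in untreated ZDF and 7.63, 7.47, 7.06, 7.72 and 7.17 in resveratrol rats (-0.70 ± 0.21, adjusted p = 0.0341), but not past the test without lean replicate 1, 2, 3 or 4 or resveratrol replicate 1, 3 or 5 (adjusted p up to 0.0814). Pf4 differed by -0.44 ± 0.13 (adjusted p = 0.0329), but not past the test without lean replicate 1, 2 or 4 or resveratrol replicate 1, 3 or 5 (adjusted p up to 0.0761). In the list of mast cells, basophils and eosinophils (7 genes), Alox15, a lipoxygenase that is abundant in eosinophils and, in rabbits, in reticulocytes, was higher, at 10.61, 10.68, 10.82, 10.70 and 10.62 in lean and 11.10, 11.15, 11.28, 11 and 10.93 in resveratrol rats (0.40 ± 0.13, adjusted p = 0.0371), but not past the test without lean replicate 1, 2, 4 or 5 or resveratrol replicate 1, 2 or 3 (adjusted p up to 0.0873). The list means of resveratrol rats (4.46 to 4.58) lay above those of lean (4.12 to 4.28) and untreated ZDF rats (4.24 to 4.40), which overlapped each other.

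Interferon response genes were lower in 7 of 19, against 10.4% of all genes, with 15 negative differences and a median of -0.52. These genes are switched on by type I and type II interferon through short promoter elements and encode antiviral effectors. Ifi27 read 7.81, 8.16, 8.06, 7.41 and 7.64 in lean, 7.25, 7.45, 7.41, 7.30 and 7.28 in untreated ZDF and 6.70, 6.77, 7.09, 7.15 and 6.73 in resveratrol rats, without overlap with lean (-0.93 ± 0.21, adjusted p = 0.0119). Mx1, a dynamin-like antiviral GTPase, read 5.53, 5.12, 4.46, 4.54 and 4.89 in lean and 2.82, 3.87, 3.41, 4.54 and 3.81 in resveratrol rats (-1.22 ± 0.28, adjusted p = 0.0119), where resveratrol replicate 4 overlapped the lean rats. Ifi44 differed by -0.78 ± 0.18 (adjusted p = 0.0123), from 4.28, 4.40, 4.25, 4.39 and 4.20 in lean to 3.03, 3.57, 3.44, 3.85 and 3.74 in resveratrol rats, and these 3 genes and Zbp1 passed whichever single resveratrol or lean array was left out. Without the 3 arrays that stand apart Mx1 and Ifi44 did not pass (adjusted p = 0.0527 and 0.0568). Their differences in untreated ZDF were -0.48, -0.47 and -0.51, none past the test, and -1.003 for Zbp1, which passed. The list count was 4 to 9 with 1 array left out, 4 without resveratrol replicate 1, lean replicate 1 or lean replicate 4. The lean rats themselves spread over 5.74 to 6.41 in the list mean, against 5.28 to 5.98 in resveratrol rats.

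Promoters of 5 of these 7 lower genes were found in the RefSeq table (assembly GRCr8), each a window of 250 bases before to 50 after the gene start. They were searched on either strand for the core of the interferon response element, GAAA followed by any 2 bases and GAAA again. It was in 4 of the 5 and in 10 of the 15 tested interferon genes with a promoter (66.7%). Of the promoters of all lower genes 4.63% held it, and 2.31% of all higher genes. Beside these stand 3.22% of the 6967 tested genes with a promoter and 3.77% of all 27457 promoters. A match is a description of the letters and not of a working site. Shown are the windows of 3 lower genes that hold the element, in capitals, so that its place can be compared; they lie at chr6:128355062-128355361 (plus strand) for Ifi27, chr2:243303791-243304090 (minus strand) for Ifi44 and chr3:67683919-67684218 (minus strand) for Ifih1, a cytosolic sensor of viral RNA.
Ifi27: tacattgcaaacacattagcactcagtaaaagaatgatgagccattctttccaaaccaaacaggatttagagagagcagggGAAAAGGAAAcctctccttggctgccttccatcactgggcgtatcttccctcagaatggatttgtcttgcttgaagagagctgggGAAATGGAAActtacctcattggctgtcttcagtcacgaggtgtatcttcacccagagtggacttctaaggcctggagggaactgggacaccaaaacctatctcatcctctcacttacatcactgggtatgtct
Ifi44: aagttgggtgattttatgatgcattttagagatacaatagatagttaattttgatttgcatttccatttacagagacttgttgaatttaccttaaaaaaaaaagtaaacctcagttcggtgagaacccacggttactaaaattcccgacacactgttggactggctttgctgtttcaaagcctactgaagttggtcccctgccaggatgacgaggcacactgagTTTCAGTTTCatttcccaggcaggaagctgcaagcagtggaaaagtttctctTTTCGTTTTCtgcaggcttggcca
Ifih1: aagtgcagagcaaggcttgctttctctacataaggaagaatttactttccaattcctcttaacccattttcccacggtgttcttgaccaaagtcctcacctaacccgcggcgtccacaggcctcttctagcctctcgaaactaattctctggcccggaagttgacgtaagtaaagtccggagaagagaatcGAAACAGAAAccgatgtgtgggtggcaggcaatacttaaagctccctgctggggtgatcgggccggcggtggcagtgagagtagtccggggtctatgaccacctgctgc
Ifi27 and Ifi44 each hold 2 copies and Ifih1 holds 1. In Ifi44 and Gbp5, an interferon-induced GTPase, the element is on the opposite strand, and Mx1 has none of these letters in its window. The other motifs searched were about as frequent among lower genes as among all promoters of tested genes: the GATA site GATAAG was in 5.45% and 5.53%, the CCAAT box in 39.8% and 38.0%, the E-box CACGTG in 9.67% and 9.13% and the antioxidant response element (TGAC, any 3 bases, GC) in 14.0% and 14.1%. Among the 173 promoters of higher genes the last was in 19.7%, the E-box in 4.62%, the GATA site in 5.2% and the CCAAT box in 37.6%. Of 21 red cell promoters the GATA site was in 6 (28.6%), the CCAAT box in 12 (57.1%) and the interferon element in 4 (19%). The E-box was in 3 of them (14.3%) and the antioxidant response element in 1 (4.76%). These shares were not tested.

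In the spliceosome list 13 of 38 were lower, against 10.4% of all genes, 32 differences were negative and the median was -0.46. Hnrnpa1, an RNA-binding splicing regulator, read 6.55, 6.85, 6.65, 6.74 and 6.60 in lean, 5.82, 5.72, 5.77, 6.52 and 5.99 in untreated ZDF and 5.69, 5.68, 5.41, 5.53 and 5.29 in resveratrol rats (-1.16 ± 0.17, adjusted p = 0.000669). Every resveratrol value lay below every lean and untreated ZDF value, and resveratrol replicate 1 was the highest of its group here. Srsf9 and Tra2b, further splicing regulators, and Sf3b3, a subunit of the U2 particle, differed by -0.996 ± 0.20, -0.88 ± 0.20 and -0.70 ± 0.16 (adjusted p = 0.00745, 0.0119 and 0.0138). With 1 array left out the list count was 5 to 19, with 5 without resveratrol replicate 1, 6 without lean replicate 1 or 4, 8 without lean replicate 2 and 19 without resveratrol replicate 4, and the median stayed between -0.52 and -0.37. After quantile normalization 6 passed, where 239 of all 8499 genes were lower. The list mean was 5.15 to 5.35 in lean, 4.96 to 5.02 in untreated ZDF and 4.64 to 5.02 in resveratrol rats.

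Among cytosolic ribosomal proteins 11 of 39 were lower and 1 (Rps6, dim here) higher, beside 10.4% lower and 2.73% higher over all genes. The list is bright (mean 7.77 in lean). With the brightness cut at the 75th percentile 935 of 4361 genes were lower, and their all-gene median was -0.217. The list median was -0.33, and -0.30 in untreated ZDF. Rpl27 read 7.81, 7.73, 7.54, 7.91 and 7.83 in lean and 7.13, 7.15, 7.24, 7.41 and 7.24 in resveratrol rats (-0.53 ± 0.13, adjusted p = 0.0174), but not past the test without lean replicate 4 (adjusted p up to 0.0523). The list count fell to 0 without lean replicate 4, 1 without lean replicate 1, 2 without resveratrol replicate 1 or 3, 3 without lean replicate 2, 5 without lean replicate 5 or resveratrol replicate 5 and 7 without resveratrol replicate 2, while the median stayed between -0.36 and -0.30. Of 26 translation factors 7 were lower (median -0.35), among them Eif4e, the cap-binding protein, at -0.71 ± 0.17 (adjusted p = 0.0151), but not past the test without lean replicate 4 (adjusted p up to 0.0521). Without lean replicate 4 that count was 0, without resveratrol replicate 1 it was 1, and without lean replicate 1 it was 2. After quantile normalization 3 cytosolic ribosomal proteins and 3 translation factors were lower, beside 239 of all 8499 genes.

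Over all genes 10.4% were lower and 2.73% higher, shares to set beside the counts of this paragraph that use all 20 arrays as deposited. With the brightness cut at the 75th percentile 935 of 4361 genes were lower, with a median of -0.217. Over all 8499 genes, 249 were lower without resveratrol replicate 1 and 1078 without resveratrol replicate 4. The number was 266 without lean replicate 1, 472 without lean replicate 2 and 260 without lean replicate 4. Among 28 heat shock and unfolded protein genes 6 were lower and 0 higher (median -0.36). Hspa9, the mitochondrial chaperone mortalin, and Hspa4, a cytosolic chaperone of the HSP110 family, differed by -0.74 ± 0.20 and -0.63 ± 0.17 (adjusted p = 0.0222 and 0.0238). None of the list passed without resveratrol replicate 1, lean replicate 1 or lean replicate 4, 3 without lean replicate 2 and 10 without resveratrol replicate 4. The proteasome had 6 of 37 lower and 2 higher (median -0.28): Psma1, a core subunit, differed by -0.77 ± 0.18 (adjusted p = 0.0148), whereas Psme4, the activator PA200, and Adrm1, a ubiquitin receptor, were higher by 0.66 ± 0.19 and 0.44 ± 0.14 (adjusted p = 0.0269 and 0.0381). The last 2 calls were lost without resveratrol replicate 1 or 3 or lean replicate 1, 2, 4 or 5 (adjusted p up to 0.103), and Adrm1 also without resveratrol replicate 2. The lower count was 1 without resveratrol replicate 1, lean replicate 2 or lean replicate 4, 2 without lean replicate 1 or resveratrol replicate 2 or 5 and 3 without lean replicate 5 or resveratrol replicate 3. Of 30 cell cycle genes 5 were lower (median -0.10), among them Pcna, the replication clamp, at -1.04 ± 0.26 (adjusted p = 0.0162, and 0.0503 without resveratrol replicate 1, when 1 gene passed). That count was 2 without lean replicate 1 and 3 without lean replicate 2 or 4. After quantile normalization 2 heat shock and unfolded protein genes, 1 proteasome gene and 2 cell cycle genes were lower, beside 239 of all 8499 genes.

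**Figure D4:**
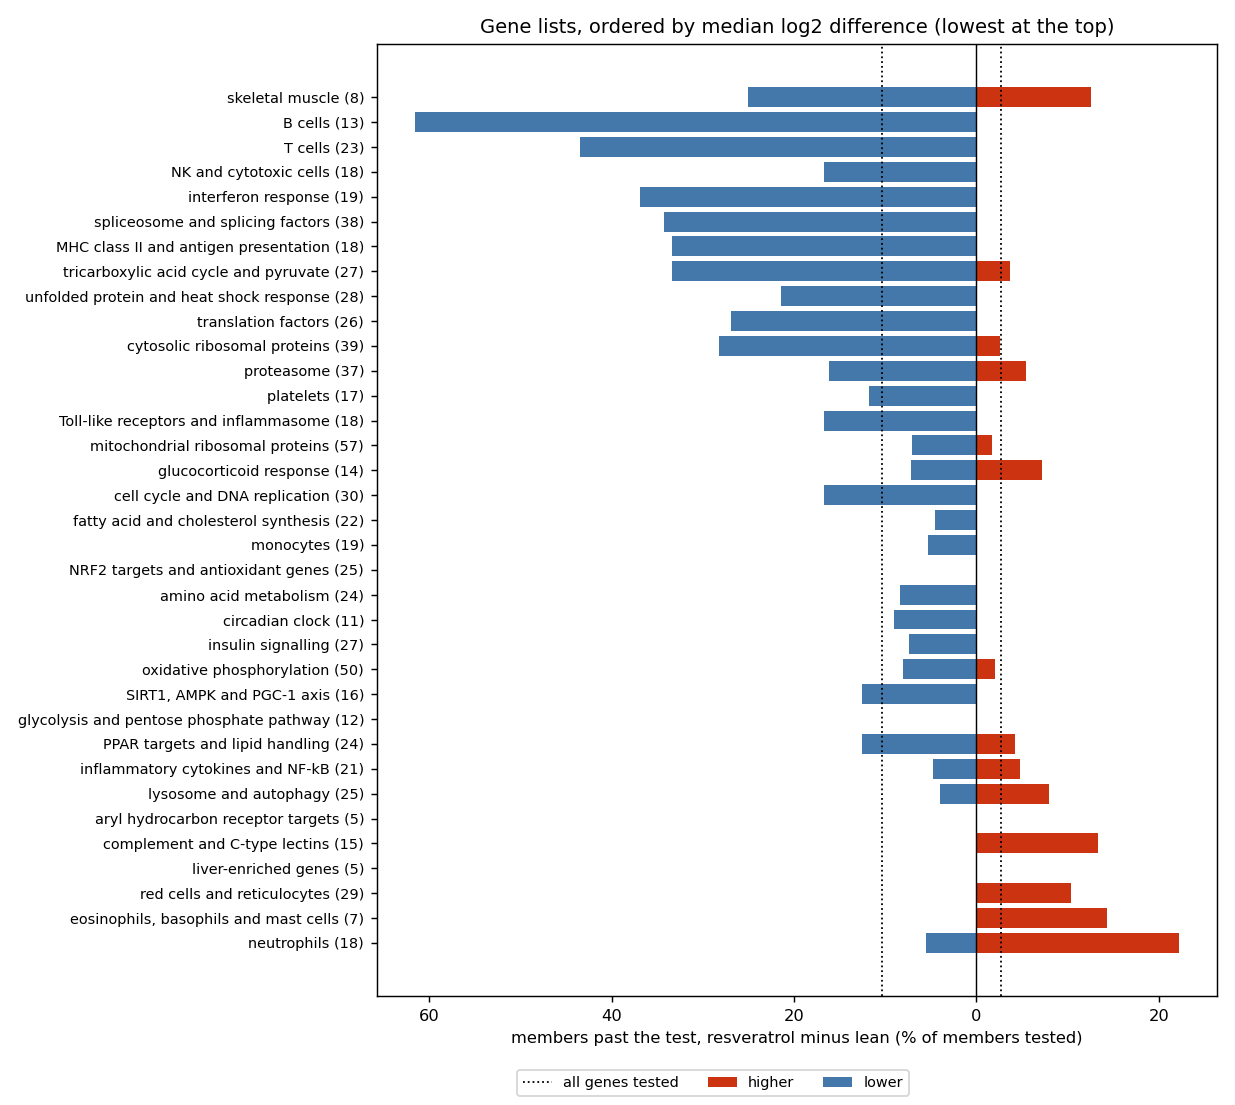
Share of tested members past the test in resveratrol minus lean (x axis, percent), higher to the right of 0 and lower to the left, for each of 35 gene lists (y axis, number of genes tested in parentheses), ordered by median difference. Dotted lines give the shares over all genes, 10.4% lower and 2.73% higher. B cells (8 of 13), T cells (10 of 23) and interferon response genes (7 of 19) reach farthest left, and neutrophils (4 of 18) farthest right.

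In energy metabolism, the tricarboxylic acid cycle and pyruvate list had 9 of 27 lower (10.4% over all genes) and 1 higher, with a median of -0.38. The median was -0.27 in untreated ZDF. After quantile normalization 2 genes were lower and 1 higher, beside 239 lower and 176 higher of all 8499 genes. Got1, the cytosolic aspartate aminotransferase of the malate-aspartate shuttle, read 5.11, 4.62, 4.67, 4.43 and 4.17 in lean, 3.84, 4.02, 3.91, 3.68 and 3.68 in untreated ZDF and 3.12, 3.49, 3.74, 3.37 and 3.45 in resveratrol rats (-1.17 ± 0.18, adjusted p = 0.00104). Every resveratrol value lay below every lean value. Idh3a, a subunit of isocitrate dehydrogenase, differed by -0.86 ± 0.19 (adjusted p = 0.0107), while the pyruvate dehydrogenase kinase Pdk3 was higher by 0.63 ± 0.16 (adjusted p = 0.0189), but not past the test without lean replicate 4 or resveratrol replicate 1 or 3 (adjusted p up to 0.0564). The lower count was 2 without resveratrol replicate 1 or lean replicate 1, 3 without lean replicate 4, 4 without lean replicate 2, 5 without resveratrol replicate 5 and 6 without resveratrol replicate 3. Oxidative phosphorylation genes had no common direction (4 of 50 lower, 1 higher, median 0.01), although Atp5mc3, a c subunit of ATP synthase, read 5.43, 4.89, 4.76, 5.05 and 4.47 in lean and 3.73, 3.53, 4.01, 4.23 and 3.87 in resveratrol rats (-1.04 ± 0.19, adjusted p = 0.00449). That lower count was 1 without resveratrol replicate 1 or lean replicate 1 and 2 without lean replicate 2 or 4. Of 57 mitochondrial ribosomal proteins 4 were lower and 1 higher (median -0.17), with 2 lower without resveratrol replicate 1 or 3 or lean replicate 1 or 4, and of 12 glycolytic and pentose phosphate genes 0 passed, with 0 also at either sign in any of the 10 leave-outs.

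In the SIRT1, AMPK and PGC-1 list 2 of 16 were lower and 0 higher, beside 10.4% lower and 2.73% higher among all genes, and the median was 0.03. Foxo1, a transcription factor that SIRT1 deacetylates, read 6.56, 6.23, 5.80, 6.41 and 6.41 in lean and 5.15, 5.77, 5.59, 5.75 and 5.42 in resveratrol rats (-0.75 ± 0.17, adjusted p = 0.0119). Tfam, which packages mitochondrial DNA, read 4.06, 4.23, 4.24, 4.35 and 4.17 in lean and 2.60, 3.69, 3.22, 3.65 and 3.53 in resveratrol rats (-0.87 ± 0.22, adjusted p = 0.0174, and 0.0578 without resveratrol replicate 1). Neither list of antioxidant genes under NRF2 (0 of 25, median -0.06) nor of aryl hydrocarbon receptor targets (0 of 5, median 0.19) had a gene past the test. In the antioxidant list 3 were lower without lean replicate 5 and 1 without resveratrol replicate 4. The medians of the SIRT1, antioxidant, PPAR, insulin, glycolysis, oxidative phosphorylation and clock lists lay within 0.06 of 0 and changed sign between the deposited scale, quantile normalization and centring, so these lists have no direction here.

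Lipid and insulin genes were mixed. Past the test in either direction were 16.7% of the PPAR list and 7.41% of insulin signalling genes. For fatty acid and cholesterol synthesis it was 4.55%, for amino acid metabolism 8.33% and over all genes 13.2% (10.4% lower and 2.73% higher). Of 24 PPAR targets and lipid handling genes 3 were lower and 1 higher (median 0.05). Acadm, the medium-chain acyl-CoA dehydrogenase, read 5.90, 5.12, 4.84, 5.23 and 5.17 in lean, 4.76, 5.11, 4.73, 4.89 and 4.47 in untreated ZDF and 4.11, 4.20, 4.18, 4.89 and 4.45 in resveratrol rats (-0.89 ± 0.19, adjusted p = 0.00868), and Abcg1, a sterol exporter, differed by -0.88 ± 0.20 (adjusted p = 0.0126). Of the acyl-CoA synthetases, Acsl3 was lower by 0.91 (adjusted p = 0.0188, and 0.0623 without resveratrol replicate 1) and Acsl1 higher by 0.69 ± 0.20 (adjusted p = 0.0275), but not past the test without lean replicate 1, 2, 4 or 5 or resveratrol replicate 1 or 3 (adjusted p up to 0.0843). Of 27 insulin signalling genes 2 were lower (median -0.02): Rictor, the defining subunit of mTORC2, at 6.24, 6.10, 6.14, 6.15 and 6.21 in lean and 5.28, 5.69, 5.32, 5.59 and 5.93 in resveratrol rats (-0.61 ± 0.14, adjusted p = 0.0135), and Tbc1d1, a Rab GTPase-activating protein of glucose transport, at -0.87 ± 0.20 (adjusted p = 0.013). Both passed whichever single array was left out, but neither passed without the 3 arrays that stand apart (adjusted p = 0.0568 and 0.0602). Fatty acid and cholesterol synthesis had 1 of 22 lower, Sc5d, a desaturase of cholesterol synthesis, at -0.72 ± 0.22 (adjusted p = 0.0366), but not past the test without lean replicate 1, 2, 4 or 5 or resveratrol replicate 1, 3 or 5 (adjusted p up to 0.113). Amino acid metabolism had 2 of 24 lower, Got1 and Shmt1 (-0.74 ± 0.20, adjusted p = 0.022), but not past the test without lean replicate 1 or 4 or resveratrol replicate 1 (adjusted p up to 0.0727).

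With all 20 arrays, the counts of this paragraph stand beside 10.4% lower and 2.73% higher over all genes. Of 11 clock genes 1 was lower. Clock, the transcription factor that drives the circadian loop, read 4.62, 4.61, 4.96, 5.07 and 4.95 in lean, 4.58, 4.61, 4.53, 4.90 and 4.73 in untreated ZDF and 3.45, 3.66, 4.01, 4.43 and 4.39 in resveratrol rats (-0.85 ± 0.18, adjusted p = 0.00814), with every resveratrol value below every lean and untreated ZDF value. Times of sampling are not given in the sources used here. Among 14 glucocorticoid response genes the receptor Nr3c1 was lower (-0.59 ± 0.18, adjusted p = 0.0325), but not past the test without lean replicate 1, 2 or 4 or resveratrol replicate 1 (adjusted p up to 0.0994). Il1r2, a decoy receptor for interleukin-1 that glucocorticoids induce, was higher (1.13 ± 0.38, adjusted p = 0.0483), but not past the test without lean replicate 1, 2, 4 or 5 or resveratrol replicate 1, 3 or 4 (adjusted p up to 0.115). It was also the 1 higher gene among 21 inflammatory and NF-kB genes, of which Nfkb1 was lower (-0.71 ± 0.19, adjusted p = 0.0223), but not past the test without lean replicate 1 or 4 or resveratrol replicate 1 (adjusted p up to 0.0737). The Toll-like receptor and inflammasome list had 3 of 18 lower, Casp1, Irak2 and Irak3 (-0.57 ± 0.17, -0.65 ± 0.21 and -0.70 ± 0.21), and 0 without resveratrol replicate 1 or 3 or lean replicate 1, 2 or 4.

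Beside 2.73% higher and 10.4% lower over all genes, complement and C-type lectin genes had 2 of 15 higher (median 0.22). These were Cfd, the protease adipsin, at 2.67, 2.69, 2.81, 2.65 and 2.40 in lean and 3.05, 3.12, 3.52, 3.46 and 3.30 in resveratrol rats (0.65 ± 0.17, adjusted p = 0.022), but not past the test without lean replicate 4 or resveratrol replicate 3 (adjusted p up to 0.0522), and Clec5a, a myeloid lectin (0.88 ± 0.28, adjusted p = 0.0384), but not past the test without lean replicate 1, 2, 4 or 5 or resveratrol replicate 1, 3, 4 or 5 (adjusted p up to 0.0961). Among 25 lysosome and autophagy genes Ctsb, a cathepsin, and Map1lc3a, a component of autophagosomes, were higher by 0.40 ± 0.13 and 0.68 ± 0.21 (adjusted p = 0.0473 and 0.0366) and Ctsl, another cathepsin, lower by 0.93 (adjusted p = 0.0271). All 3 lost the call without resveratrol replicate 1, lean replicate 1 or lean replicate 4 (adjusted p up to 0.12). Of 8 muscle genes Acta1 and Eno3 were lower (-1.28 ± 0.37 and -0.93 ± 0.30) and Myoz1 higher (0.69 ± 0.22, adjusted p = 0.0413), but not past the test without lean replicate 2, 3, 4 or 5 or resveratrol replicate 1, 2 or 3 (adjusted p up to 0.096). Acta1 did not pass without lean replicate 1, the array with the muscle signal, or without resveratrol replicate 1 or 3 (adjusted p up to 0.0768). Eno3 did not pass without lean replicate 1, 3 or 4 or resveratrol replicate 1, 3, 4 or 5 (adjusted p up to 0.128). Of 5 liver-enriched genes 0 passed, and Alb (albumin) read 3.45, 3.01, 2.82, 3.27 and 3.06 in lean and 3.49, 4.18, 2.97, 3.13 and 3.01 in resveratrol rats.

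5 genes passed in untreated ZDF minus lean but not under resveratrol. Treml4, a TREM-like receptor of monocytes and dendritic cells, read 5.35, 4.80, 5.21, 4.99 and 4.59 in lean, 6.03, 5.98, 6.11, 5.89 and 5.78 in untreated ZDF and 4.65, 5.38, 4.37, 5.11 and 5.23 in resveratrol rats. The resveratrol rats overlapped the lean rats (-0.04 ± 0.21), and all untreated ZDF rats lay above both groups. Bud23, a ribosomal RNA methyltransferase, read 5.26, 5.50, 5.52, 5.64 and 5.99 in lean, 4.52, 4.58, 4.38, 4.27 and 4.89 in untreated ZDF and 5.20, 5.64, 5.74, 5.56 and 4.98 in resveratrol rats, so the untreated ZDF rats lay below all others. Treml1, a receptor of platelet granules, read 7.60, 7.39, 7.51, 7.49 and 6.95 in lean, 6.63, 6.68, 6.76, 6.58 and 6.76 in untreated ZDF and 7.32, 7.36, 7.21, 7.33 and 6.97 in resveratrol rats, and the untreated ZDF rats were again below all others. Set directly against untreated ZDF, these genes were at -1.01, 0.90 and 0.56 (adjusted p = 0.143, 0.143 and 0.34), short of the threshold. The other 2, Nuak1, an AMPK-related kinase, and Scin, an actin-severing protein, were at -0.85 and -0.87 in untreated ZDF and -0.26 ± 0.18 and -0.43 ± 0.19 under resveratrol.

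The smallest p between resveratrol and untreated ZDF belonged to P2ry10, a lymphocyte receptor for lysophosphatidylserine. It read 5.33, 4.42, 5.22, 4.92 and 4.81 in lean, 4.53, 5.11, 5.11, 5.20 and 4.73 in untreated ZDF and 3.58, 4.21, 3.88, 3.83 and 4.22 in resveratrol rats. The resveratrol rats lay below all lean and untreated ZDF rats, which overlapped, and the difference was -0.998 ± 0.19 against lean (adjusted p = 0.00555) and -0.99 against untreated ZDF (unadjusted p = 2.78e-05, adjusted p = 0.143). Adgre4, an adhesion receptor of myeloid cells, read 7.28, 6.74, 7.03, 6.80 and 7.26 in lean, 7.67, 7.69, 7.77, 7.70 and 7.23 in untreated ZDF and 5.31, 6.91, 6.56, 6.27 and 6.83 in resveratrol rats (-1.24 against untreated ZDF, adjusted p = 0.143). Pilrb1l1, a paired receptor copy, and Cd244l1, a copy of an NK receptor, were at -1.12 and -1.37 against untreated ZDF, and may share probes with their relatives. On the side of higher values stood Rbpms2, an RNA-binding protein, Mybl2, a cell cycle transcription factor, and Ppp2r5b, a phosphatase subunit, at 0.89, 0.88 and 1.04. Rbpms2 and Mybl2 did not differ from lean by the test under resveratrol (0.04 ± 0.21 and 0.30 ± 0.20). For the monocyte marker Cx3cr1, the fractalkine receptor, the values were 5.88, 5.74, 5.52, 5.75 and 5.56 in lean, 6.27, 6.47, 6.64, 6.25 and 6.37 in untreated ZDF and 3.98, 5.86, 5.25, 5.66 and 6.02 in resveratrol rats.

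**Figure D5:**
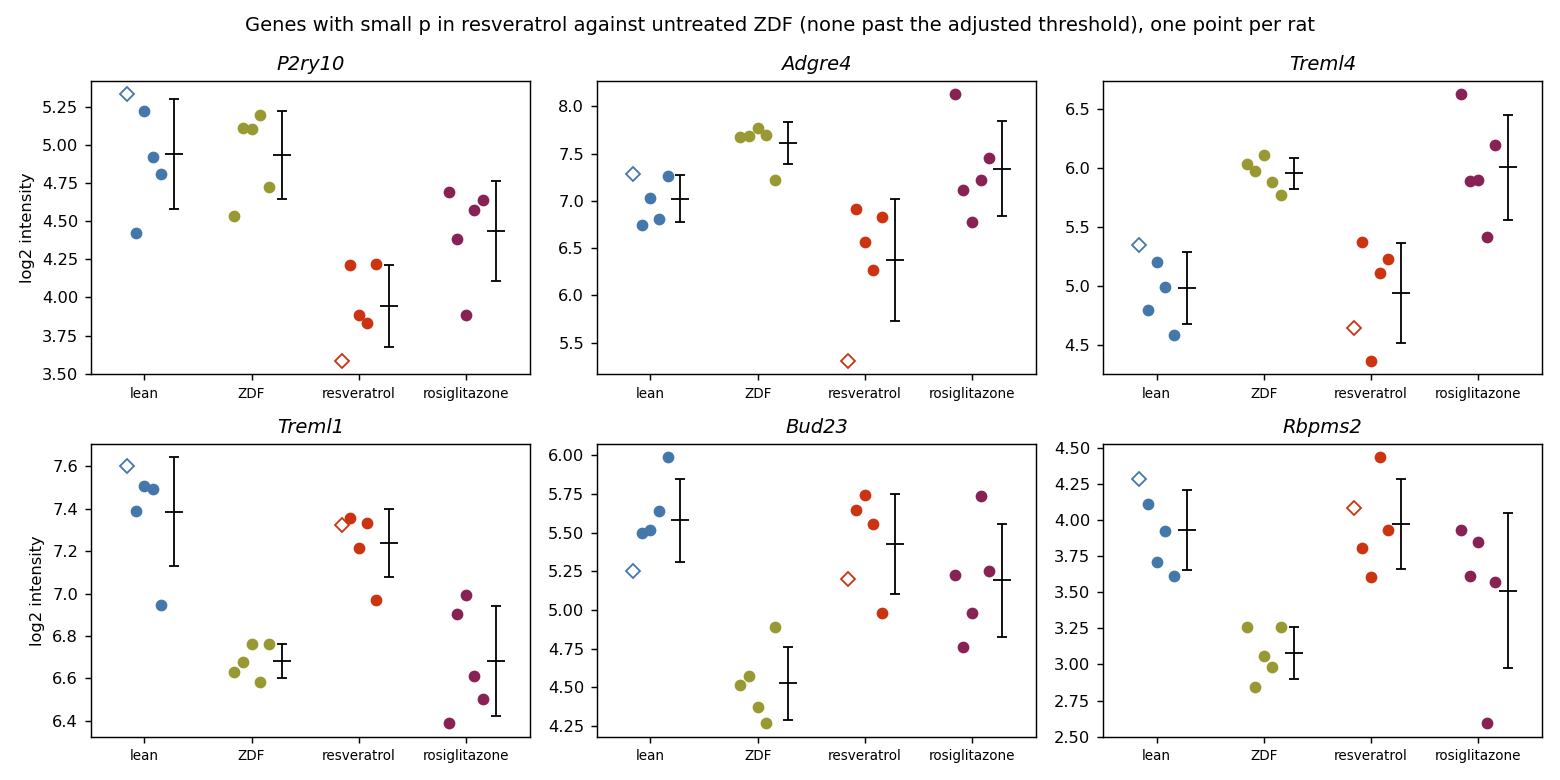
Log2 intensity (y axis) of 6 genes with a small p in resveratrol minus untreated ZDF or in untreated ZDF minus lean, with 1 point per rat in the 4 groups and the mean with its SD in black. Open diamonds are lean replicate 1 and resveratrol replicate 1. The resveratrol rats lie below all untreated ZDF rats for P2ry10, Adgre4 and Treml4 and above all of them for Treml1, Bud23 and Rbpms2, though none of the 6 passed the adjusted test of resveratrol minus untreated ZDF.

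Among the genes that appeared under resveratrol, those with the smallest p against untreated ZDF beside P2ry10, Klrk1 and Cd244l1 were Snapc3, Zbtb25 and Ammecr1. Snapc3, a subunit of the complex that starts small nuclear RNA genes, read 5.44, 5.27, 5.16, 5.31 and 5.40 in lean, 4.93, 5.09, 5.36, 5.22 and 4.98 in untreated ZDF and 4.09, 4.48, 4.45, 4.69 and 4.69 in resveratrol rats (-0.84 ± 0.15 against lean, adjusted p = 0.0045). Zbtb25, a zinc finger repressor, differed by -1.03 ± 0.18 (adjusted p = 0.0035), and Ammecr1 by -0.73 ± 0.20 (adjusted p = 0.0238), but not past the test without lean replicate 2 or 4 or resveratrol replicate 1 (adjusted p up to 0.0674). Against untreated ZDF these 3 were at -0.64, -0.74 and -0.81, with adjusted p of 0.288, 0.289 and 0.289. Cd244l1 itself was at -1.12 ± 0.32 against lean (adjusted p = 0.0275), but not past the test without lean replicate 1, 2 or 4 or resveratrol replicate 1 or 3 (adjusted p up to 0.0907).

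Rosiglitazone-treated ZDF rats were the other treated group. Between resveratrol and rosiglitazone 4 of 8499 genes (0.0471%) passed. H2ac12 and RGD1565183 were higher under resveratrol by 1.30 and 2.12 (adjusted p = 0.000195 and 0.00117), and Snrpgl2 and Prok2 lower, at -2.30 and -1.52 (adjusted p = 0.000132 and 0.013). H2ac12 read 5.01, 5.40, 5.27, 5.53 and 5.45 and Snrpgl2 5.75, 5.72, 6.005, 5.95 and 4.84 under rosiglitazone, so that the rosiglitazone rats overlapped the lean rats in both genes while the resveratrol rats did not.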

How the data were processed

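Total RNA (100 ng) of the blood of 20 rats, 5 per group, was measured on Affymetrix Rat Gene 2.1 ST arrays. The deposited table holds log2 intensities per transcript cluster that the authors made by robust multi-array averaging (RMA), which by default corrects background, quantile-normalizes and summarizes probes. Array medians ran from 2.54 to 2.78, so the columns do not share a single distribution as deposited. RMA is named in the submitters' processing notes, with no version in the sources used here, and the study's methods name the affy and oligo packages. All 20 value columns matched a sample title, leaving 0 unmapped.

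Of 36685 clusters, 14824 had 1 symbol in the platform annotation, 829 several and 21032 none, and several or none were left out. Symbols were updated through the RefSeq gene table for 14670 clusters and kept for 154. Clusters whose mean over the 20 arrays was at least the median of all cluster means (2.64) were kept, and each gene was represented by its brightest cluster, giving 8499 of 14557 named genes. The values of the table ran from -0.288 to 12.2. The number of arrays limits the precision, and the calls also moved with the scaling and with single arrays. limma 3.58.1 in R 4.3.3 was fitted on all 20 arrays with a mean per group and default eBayes, with Benjamini-Hochberg adjustment over 8499 genes and a threshold of 0.05. Arrays are titled as biological replicates, and 0 pairs of arrays were identical. In data simulated for resveratrol minus lean over 8499 genes, the fit called 17.9%, 83.6% and 100% of genes changed by 0.5, 1 and 1.5 log2 units, and 7 of 8299 unchanged genes. Tables and plots were made with Python 3.11.15, pandas 2.3.3 and matplotlib 3.10.9.

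A difference remained when it passed with the same sign in untreated ZDF minus lean, and appeared when it passed under resveratrol only. Named genes were the 12 largest rises and 12 largest falls past the test without overlap (leaving out LOC, RGD and predicted names), up to 4 members past the test per list with the smallest p (or its only one), the 6 appearing genes and up to 6 no longer passing genes with the smallest p against untreated ZDF, the 6 remaining genes with the smallest p, the 10 smallest p against untreated ZDF, and the defining markers of cell types. The other remaining genes, the interferon genes with a promoter shown, Prok2 and RGD1565183 were named after their values were seen. The 35 gene lists and the members were chosen with earlier results of these data known. Alternatives were other filters, quantile normalization, centring, fits on 10 arrays, averaging over clusters, array weights, a variance prior that was trended and robust, the replicate block and leaving out each array. Leaving out the 3 arrays that stand apart was chosen after seeing the data.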

Additional observations from a re-analysis of the deposited data

Results flagged for a closer look

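Of 368 tests of whether the highest or lowest rat of a group of 5 stood far from the other 4, over named genes and list means, 31 found such a rat. A rate of about 1 in 20 holds for independent values that were not selected. Most of these genes were chosen by these same values, and the list means share genes with them. The 31 can therefore not be set against that rate. Resveratrol replicate 1 accounted for 14 of the 31, lean replicate 1 for 6, lean replicate 5 for 4, lean replicate 3 and resveratrol replicate 2 for 2 each, and lean replicate 2, resveratrol replicate 4 and resveratrol replicate 5 for 1 each.

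Resveratrol replicate 1 stood apart with 3.80 for Abcg1, 3.43 for Cd14, 3.27 for Cd69, 4.36 for Eif2ak3, 6.79 for Eif3m, 3.94 for Klrk1, 3.96 for Krt86, 2.07 for Mrps30, 4.98 for Nr3c1, 1.36 for P2ry10b and 4.19 for Sdha. Its list means were 4.52 for monocytes, 4.78 for MHC class II and antigen presentation and 4.86 for the glucocorticoid response. Lean replicate 1 stood apart with 7.39 for Acta1, 6.35 for Mb, 5.93 for Eno3, 6.58 for Calhm6 and 3.38 for Map1lc3a and with a muscle list mean of 5.68.

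Lean replicate 5 did so with 4.25 for Cd14, 4.42 for Klf4, 4.09 for Ppp2r5b and 5.10 for the oxidative phosphorylation mean. For lean replicate 3 the values were 5.99 for S1pr1 and 7.61 for the cytosolic ribosome mean, and for lean replicate 2 it was 5.05 for Psmb8. The remaining values were 3.44 for Irak2 and 2.70 for Rps3a in resveratrol replicate 2, 4.04 for Scin in resveratrol replicate 4 and 3.18 for Cd3d in resveratrol replicate 5.

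Resveratrol and rosiglitazone rats differed from each other by the direct test in 4 genes, with resveratrol minus rosiglitazone of 1.30 for H2ac12, 2.12 for RGD1565183, -1.52 for Prok2 and -2.30 for Snrpgl2.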

How the results depend on the processing

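Genes past the test in resveratrol minus lean numbered 1118, and 415 after quantile normalization and 245 without the 3 arrays that stand apart, of which 407 and 221 appeared under resveratrol. With 1 array left out the count was 317 to 1363, the appearing genes 276 to 1342, the remaining genes 6 to 68, the genes passing only in untreated ZDF 1 to 52 and those between resveratrol and untreated ZDF 0 to 1 (1 without ZDF replicate 5). The remaining genes (18) became 57 with the filter at the 75th percentile, 8 after quantile normalization, 58 after centring, 135 on each contrast's own arrays, 388 with array weights and 56 with the trended and robust prior. The genes passing only in untreated ZDF (5) became 2 without a filter, 2 with the filter at the 25th percentile, 26 at the 75th, 23 after centring, 116 on own arrays, 238 with array weights, 23 with the trended and robust prior and 27 without the 3 arrays. The cause was not tested. Of 149 named genes, 45 lost their call after quantile normalization, 63 without resveratrol replicate 1, 53 without lean replicate 1 and 56 without lean replicate 4, and no called gene changed sign in these settings.

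Replicate numbers are shared by the groups, but deviations of same-numbered lean and resveratrol rats correlated at -0.18, -0.02, 0.04, 0.08 and 0.20, with the own number highest in 2 of 5, so the numbers were not taken as pairs. With the replicate block 1032 genes passed, 39 remained, 993 appeared, 16 passed only in untreated ZDF and 0 differed between resveratrol and untreated ZDF. Dim genes near the filter and differences of 0.5 are hard to call with 5 rats per group. The 17.9% called in simulated data holds for genes that vary independently, so the share in these rats is not known.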
